A study of Mus musculus with 33 samples.

Results

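The DNA repair and replication checkpoint genes described here are 31 genes given as a list of symbols and looked up in a table of 54532 gene rows, in which all 31 were found once. They comprise 4 checkpoint kinases, 5 checkpoint mediators, 2 members of the MRN complex, 5 genes of the BRCA complexes, 7 genes of strand exchange and annealing, 1 helicase with 2 nucleases, and 5 Fanconi anaemia genes. RNA was sequenced from mouse mammary tumours, and 32 libraries in 6 groups were used. All carried the genotype label FVB, a mouse strain, and shared a protocol in which tumours had been transplanted into mice. RP-6306 inhibits PKMYT1, the membrane-bound kinase that restrains CDK1 before mitosis.

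The groups took their names from the sample titles. VEH_7 (n = 3) and M20_7 (n = 4) were vehicle and RP-6306 tumours with titles ending in _7, a suffix that the labels do not explain. VEH (n = 4) and MYT (n = 11) were vehicle and RP-6306 tumours without the suffix. RP-6306 was given at 20 mg/kg, per day in the protocol and with the abbreviation bid in the treatment field, for periods that the samples' labels do not state. SPON (n = 5) and WT (n = 5) had no treatment. The series design speaks of tumours from cyclin E transgenic mice and of PyMT tumours, but no label ties a group or library to either, to a tumour line, or to a promoter that drives a transgene. No label gives the age of the mice or says that each library came from its own animal, so the p-values cover the spread between libraries, which may be technical. A library titled as vehicle whose treatment label was RP-6306 was left out.

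Replication forks that stall and DNA ends that break recruit the apical kinases ATR and ATM, which act through CHEK1 and CHEK2 to hold back the cell cycle while repair proceeds. Homologous recombination copies the lost sequence from the sister chromatid: nucleases resect the end, BRCA1 with BARD1 and PALB2 brings BRCA2, and strand exchange with the intact copy follows. The Fanconi anaemia proteins open DNA crosslinks and protect forks. Many of these genes are transcribed as cells enter S phase, under E2F factors that bind near their starts, so their level in a bulk tumour also depends on how many cells are cycling.

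Promoter sequence was available from RefSeq (GRCm38.p6) for 24 of the 31 genes, as windows from 250 bases before to 50 bases after the annotated start. An E2F word (TTTCCCGC, TTTCGCGC, TTTGCCGC or TTTGGCGC, either strand) lay in 7 of these 24 promoters (29.2%), against 2.26% of the 32851 promoters in the table. The CCAAT box (CCAAT, either strand) lay in 14 of 24 (58.3%), against 37.4%, and the cell cycle word TTTGAA, either strand, in 2 of 24 (8.33%), against 17.9%. No searched word contains another, and a match is a description of the letters only. Stretches around the E2F word are shown for the 5 genes in which it lay wholly before the start, because they span genes whose levels moved in different ways: Bard1, Brca2, Chek2 and Mdc1 were higher in MYT than in VEH, and Topbp1 was not. Capitals mark the E2F word or its reverse complement and, in Bard1, also TTTGAA. The stretches, on the strand of each gene, are Bard1 chr1:71103147-71103222 (minus), Brca2 chr5:150522427-150522486 (plus), Chek2 chr5:110839805-110839864 (plus), Mdc1 chr17:35841456-35841497 (plus) and Topbp1 chr9:103305172-103305214 (plus).
Bard1: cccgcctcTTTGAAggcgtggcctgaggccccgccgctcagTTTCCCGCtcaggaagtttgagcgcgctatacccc
Brca2: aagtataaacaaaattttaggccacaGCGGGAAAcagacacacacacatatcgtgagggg
Chek2: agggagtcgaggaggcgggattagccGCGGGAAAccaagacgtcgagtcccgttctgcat
Mdc1: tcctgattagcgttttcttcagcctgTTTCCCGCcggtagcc
Topbp1: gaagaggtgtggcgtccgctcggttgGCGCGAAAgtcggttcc

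The E2F word began 209 bases before the RefSeq start in Bard1, 168 in Brca2, 152 in Chek2, 129 in Topbp1 and 16 in Mdc1. The stretches of Bard1 and Topbp1 were cut where GENCODE M21 starts the gene, so the word lay nearer to that start. In Clspn it lay after the start. Rad51c had windows at a pair of annotated starts, with the word after the start in one and across the start in the other. Among the genes with a promoter, 6 of the 17 that were higher in MYT than in VEH held the word (35.3%), and 1 of the 7 that were not, Topbp1 (14.3%). For Timeless, Fanci and Chek1 the window lay wholly inside the gene as placed by GENCODE M21, downstream of its start. The Timeless window began at base 128237816 and the gene at 128232065. Their lack of the word therefore does not describe the sequence before that start.

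Library totals ran from 26517748 to 34637096 counts in VEH_7 and M20_7 and from 13701115 to 20105407 in the other groups. Levels are given as CPM, counts divided by the scaled library total as edgeR computes them, with TMM factors over the 32 libraries. Some libraries stood apart. SPON replicates 1 and 5 had 19.98% and 23.55% of their counts in mitochondrially encoded genes, against 1.268% to 7.752% in the others. VEH replicate 1 had 238 CPM of the epithelial gene Epcam, and the lowest VEH library had 8.91 CPM. The groups also differed in their cell markers, with VEH_7, M20_7 and VEH on one side and MYT, WT and SPON on the other. The summed level of 13 luminal epithelial markers was 44.2 to 122 CPM in VEH_7, 51.8 to 97.4 in M20_7, 632 to 1864 in VEH, 4145 to 10110 in MYT, 4092 to 5721 in WT and 4481 to 10660 in SPON. The summed level of 12 mesenchymal and fibroblast markers was 16150 to 23400 CPM in VEH_7, 14660 to 17530 in M20_7, 14720 to 22190 in VEH, 1656 to 5494 in MYT, 779 to 1855 in WT and 1174 to 3131 in SPON.

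Levels of the 31 genes across the 6 groups fell into no single order. WT held the lowest mean for 13 genes, VEH for 11, MYT for 4 and VEH_7 for 3. SPON held the highest mean for 11, MYT for 9, M20_7 for 6, VEH_7 for 3 and WT for 2. The highest mean was 6.01 times the lowest for Bard1, 5.29 times for Atm, 3.18 times for Topbp1 and 3.14 times for Exo1, but 1.19 times for Rad50. Per kilobase of exon, the most abundant in MYT was H2afx, the histone variant phosphorylated around DNA breaks, at 105.9 ± 17.8 CPM per kb (SD, n = 11). The next was Mdc1, a scaffold that binds phosphorylated H2AX, at 10.99 ± 1.90 CPM per kb. The lowest were the apical kinases Atr, at 0.675 ± 0.128 CPM per kb, and Atm, at 0.691 ± 0.217. Lengths merged all annotated exons of a gene and were longest for Atr (23629 bases), so its rank depends on that length. By CPM, Atr in MYT (10.3 to 19.7) was above Fancb (4.28 to 7.87).

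**Figure D1:**
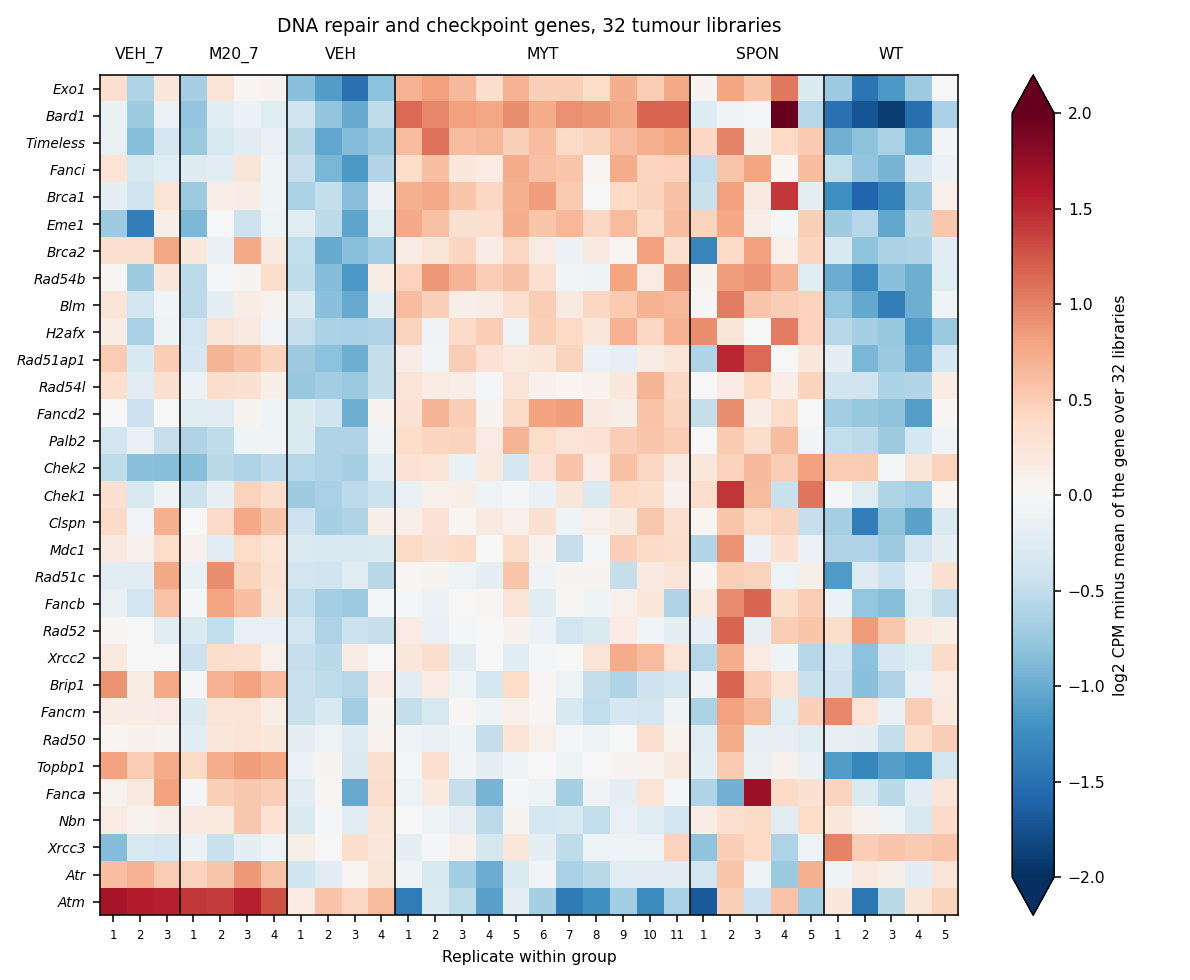
Level of each of the 31 genes (rows) in each of the 32 libraries (columns, by group and replicate), as log2 CPM minus the mean of that gene over the 32 libraries; red is above that mean and blue below, and the colour scale ends at -2 and 2. Most rows from Exo1 down to Palb2 are blue in VEH and WT and red in MYT, and Atm is darkest red in VEH_7 and M20_7.

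RP-6306 and vehicle were first compared in the tumours titled _7, where none of the 31 genes passed the test. edgeR's quasi-likelihood test with Benjamini-Hochberg adjustment over 16699 genes called 0 genes in all (0%), and 6.19% of the genes tested had an unadjusted p under 0.05, against 0 of the 31. DESeq2 and limma voom also called 0 of the 31 genes. Their log2 fold changes (M20_7 over VEH_7) had a median of 0.02, beside 0.01 over all genes tested, and 21 were positive and 10 negative. These signs are not read as a direction, because 22 of the 31 genes changed sign under another method or with 1 library left out. The 95% intervals of all 31 lay between -0.67 and 0.99, so that none included a 2-fold difference in either direction.

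The smallest p belonged to Atm, the kinase that answers DNA double-strand breaks. Atm was at 39.3, 37.2 and 36.8 CPM in VEH_7 and at 33.1, 32.9, 36.8 and 30.1 CPM in M20_7. The groups did not overlap, but M20_7 replicate 3 and VEH_7 replicate 3 were almost level. The log2 fold change was -0.18 ± 0.11 (SE), with an adjusted p of 0.841 by edgeR. Nbn, the MRN subunit that recruits ATM to breaks, was at 26.3, 24.6 and 25.5 CPM in VEH_7 and at 26.4, 26.8, 33.98 and 28.7 CPM in M20_7, with a log2 fold change of 0.19 ± 0.12 and an adjusted p of 0.86. These were the genes whose groups did not overlap, 1 lower and 1 higher, beside 3.58% and 3.10% of all genes tested. Rad52, which anneals single strands, was at 24.8, 24.6 and 21.1 CPM in VEH_7 and at 20.0, 17.3, 22 and 22.1 CPM in M20_7. Those ranges overlapped, and the log2 fold change of Rad52 was -0.21 ± 0.13 with an adjusted p of 0.86. Xrcc3, which takes part in strand exchange, was at 6.44, 9.54 and 9.34 CPM in VEH_7 and at 10.9, 8.63, 10.3 and 10.98 CPM in M20_7, overlapping through M20_7 replicate 2, with a log2 fold change of 0.27 ± 0.18.

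The checkpoint kinases Chek1 and Chek2 had log2 fold changes of 0.10 ± 0.24 and 0.10 ± 0.16 in the _7 set. For Brca1, the ubiquitin ligase that starts recombination, the log2 fold change was -0.01 ± 0.23, and for its partner Bard1 it was -0.02 ± 0.20. Lists of related genes gave the same count: 0 of 20 other recombination genes, 0 of 11 other Fanconi anaemia genes, 0 of 18 other checkpoint genes and 0 of 25 replication genes passed. The proliferation marker Mki67 was at 304.8 ± 52.6 CPM in VEH_7 and 310.3 ± 55.8 in M20_7 (SD, n = 3 and 4). M20_7 replicate 1 was below its group's mean for all but 1 of the 31 genes, by a median of 0.38 on the log2 scale, and without it 0 genes passed.

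In the tumours without the suffix, 21 of the 31 genes were higher in MYT than in VEH, 1 was lower and 9 did not pass. Over all 16021 genes tested, edgeR called 30.5% higher and 29.0% lower, so that most of the transcriptome differed between these groups. The median log2 fold change of the 31 genes was 0.66, beside 0.04 over all genes tested. The groups did not overlap for 13 genes that were higher and for 1 that was lower, beside 16.9% and 18.2% of all genes. Mki67 was higher as well, at 152.3 ± 45.7 CPM in VEH and 435 ± 82.4 in MYT (SD, n = 4 and 11), with a log2 fold change of 1.52 ± 0.19. So were 12 of the 13 luminal markers, while 10 of 12 mesenchymal markers, 6 of 6 endothelial and 6 of 6 macrophage markers were lower. The part of cycling and of cell type in the repair genes' difference was not tested. Fewer cells of a type and less RNA per cell cannot be told apart in bulk tissue. No label says whether MYT and VEH tumours shared a source, so treatment and tumour source cannot be told apart here. Below, genes that rose or fell are those higher or lower in MYT than in VEH.

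**Figure D2:**
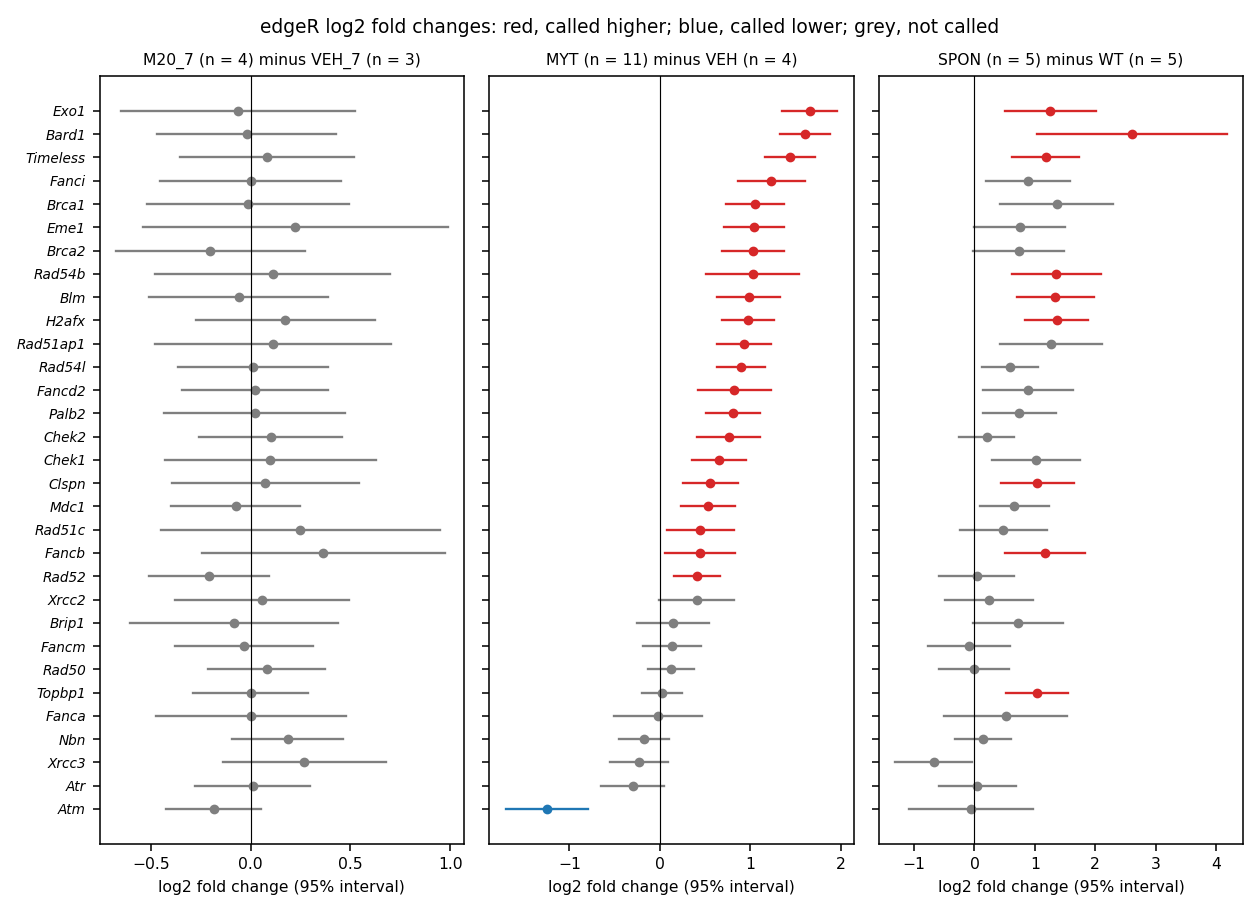
log2 fold change of each gene with its 95% interval in the 3 comparisons, from edgeR; red marks genes called higher, blue genes called lower and grey genes not called, and each panel has its own x axis. All intervals of the left panel lie between -0.67 and 0.99, the middle panel runs from Exo1 at 1.66 to Atm at -1.25, and Bard1 has the widest interval of the right panel.

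The kinases divided in this comparison. Atm was at 14.0, 18.4, 16.6 and 19.3 CPM in VEH and between 4.60 and 10.96 CPM in MYT, with a median of 7.66. Every MYT library lay below every VEH library. The log2 fold change of Atm was -1.25 ± 0.22, with an adjusted p of 9.49e-05 by edgeR, which made Atm the 1 gene of the 31 that fell. Atr, the kinase of stalled forks, was at 15.5, 17.7, 21.2 and 24.4 CPM in VEH and at 10.3 to 19.7 CPM in MYT, with a log2 fold change of -0.30 ± 0.17 and an adjusted p of 0.13. The effector kinases that they phosphorylate went the other way. Chek1 was at 9.92, 10.4, 11.3 and 12.1 CPM in VEH and at 13.4 to 21.2 CPM in MYT, without overlap, with a log2 fold change of 0.66 ± 0.14. Chek2 was at 11.03, 10.6, 10.3 and 14.2 CPM in VEH and at 13.0 to 24.7 CPM in MYT, with a log2 fold change of 0.76 ± 0.17, and VEH replicate 4 lay within the MYT range.

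Of the 5 mediators, 4 rose and 1 did not pass. Timeless, which travels with the replication fork and supports CHEK1 activation, was at 27.0, 19.1, 21.8 and 23.9 CPM in VEH and at 51.7 to 84.0 CPM in MYT (median 60.9). The lowest MYT library was above the highest VEH library. Its log2 fold change was 1.44 ± 0.13, with an adjusted p of 1.28e-07 by edgeR. H2afx was at 81.2, 72.4, 71.5 and 73.9 CPM in VEH and at 106.2 to 181 CPM in MYT, again without overlap, with a log2 fold change of 0.98 ± 0.14. Clspn, the adaptor that presents CHEK1 to ATR, and Mdc1 rose by 0.56 ± 0.14 and 0.53 ± 0.14 on the log2 scale. Topbp1, the direct activator of ATR, was at 93.6, 105.4, 84.5 and 125.5 CPM in VEH and at 90.3 to 127 CPM in MYT. The Topbp1 ranges coincided, and its log2 fold change was 0.02 with a 95% interval from -0.20 to 0.25.

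Of the MRN complex, Nbn and Rad50 did not pass in the MYT tumours, and Mre11a, from the list of other recombination genes, fell by 0.43 ± 0.10 on the log2 scale. Nbn had a log2 fold change of -0.18 ± 0.13, and Rad50, the ATPase that tethers DNA ends, had one of 0.12 ± 0.12. In the BRCA complexes, 4 of 5 rose. Bard1 was at 18.0, 13.8, 11.9 and 16.8 CPM in VEH and at 40.1 to 53.7 CPM in MYT (median 45.1). The lowest MYT library was above the highest VEH library by more than the whole VEH range. The log2 fold change of Bard1 was 1.61 ± 0.13, with an adjusted p of 3.88e-08 by edgeR. Brca1 was at 19.9, 22.3, 17.3 and 28.5 CPM in VEH and at 30.97 to 55.3 CPM in MYT, with a log2 fold change of 1.05 ± 0.15. Brca2 was at 11.5, 8.09, 9.05 and 9.996 CPM in VEH and at 15.1 to 28.8 CPM in MYT, with a log2 fold change of 1.03 ± 0.16. Palb2, which joins BRCA1 to BRCA2, rose by 0.81 ± 0.14 on the log2 scale. Brip1, the BRCA1-bound helicase, did not pass, at 0.15 ± 0.19.

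The helicase and nuclease genes all rose. Exo1, the nuclease of long-range end resection, was at 11.3, 9.31, 7.11 and 11.5 CPM in VEH and at 25.8 to 35.9 CPM in MYT (median 31.7). The MYT and VEH ranges were separated by more than the whole VEH range. Exo1 had the largest log2 fold change of the 31 genes in this comparison, 1.66 ± 0.14, with an adjusted p of 8.14e-08 by edgeR. Eme1, a subunit of a nuclease that cuts recombination intermediates, and Blm, the helicase that dissolves them, rose by 1.05 ± 0.16 and 0.99 ± 0.17 on the log2 scale.

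Of the 7 strand exchange and annealing genes, 5 rose: Rad54b (1.03 ± 0.24), Rad51ap1 (0.93 ± 0.14), Rad54l (0.90 ± 0.13), Rad51c (0.45 ± 0.17) and Rad52 (0.41 ± 0.12). RAD54B and RAD54L are DNA-dependent motor proteins, and RAD51AP1 stimulates strand invasion. Rad52 was at 18.9, 15.9, 18.1 and 17.6 CPM in VEH and at 18.8 to 27.4 CPM in MYT, and the ranges touched at VEH replicate 1. Rad51c, which acts with XRCC3, was at 4.90, 4.84, 5.53 and 4.36 CPM in VEH and at 4.58 to 9.51 CPM in MYT, so that 3 VEH libraries lay within the MYT range. Xrcc2 (0.41 ± 0.20, adjusted p of 0.0844 by edgeR) and Xrcc3 (-0.23 ± 0.15) did not pass. Of the 5 Fanconi anaemia genes, 3 rose. Fanci, which is ubiquitinated together with FANCD2 at crosslinks, was at 6.72, 4.91, 4.14 and 6.21 CPM in VEH and at 9.56 to 15.7 CPM in MYT, without overlap, and its log2 fold change was 1.23 ± 0.18. Fancd2 rose by 0.82 ± 0.19 on the log2 scale. Fancb, a subunit of the core complex, was at 4.63, 4.04, 3.94 and 6.36 CPM in VEH and at 4.28 to 7.87 CPM in MYT, which overlapped, and rose by 0.45 ± 0.18. Fanca, another core subunit, and Fancm, which anchors the core complex to DNA, had log2 fold changes of -0.02 ± 0.23 and 0.14 ± 0.15.

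**Figure D3:**
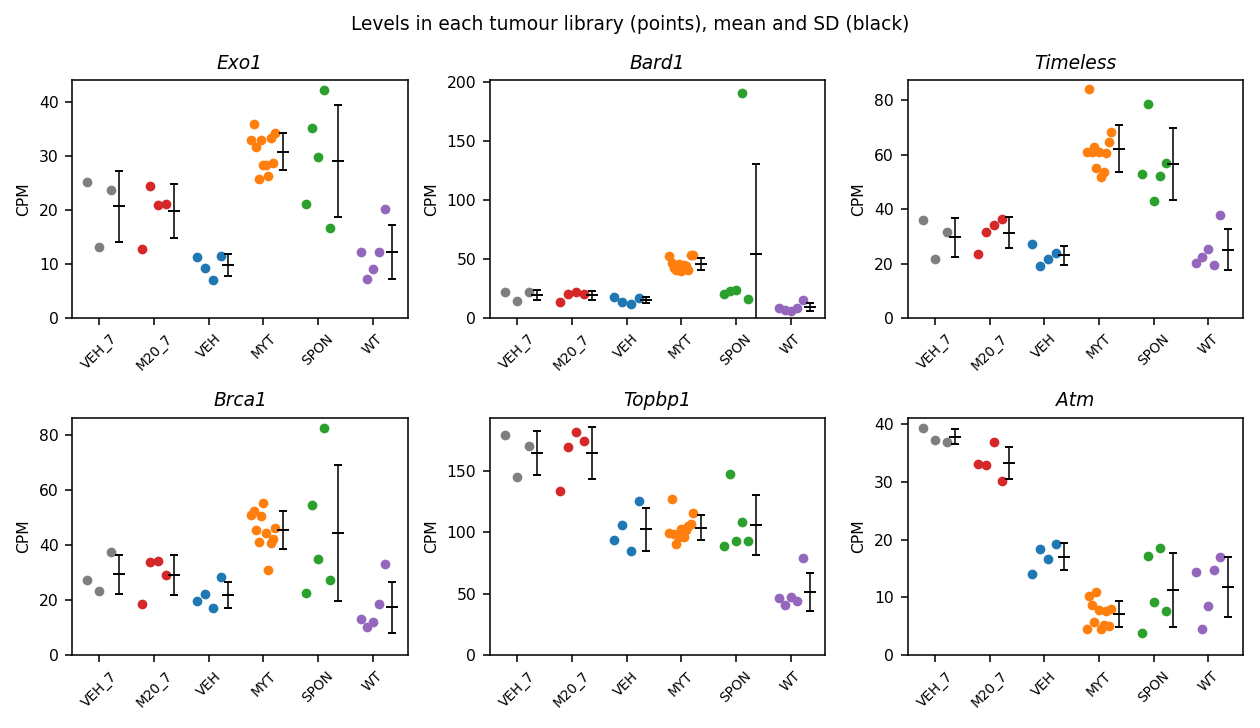
CPM of 6 of the genes in each library (points) with the group mean and SD (black); each panel has its own y axis from 0, and the SD of Bard1 in SPON reaches below 0 and is cut there. MYT lies above VEH for Exo1, Bard1, Timeless and Brca1, coincides with it for Topbp1 and lies below it for Atm, and 1 SPON library has 191 CPM of Bard1.

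The calls nearest the threshold rested on single libraries. Fancb, with an adjusted p of 0.0453, did not pass without any 1 of 12 of the 15 libraries. Rad51c, with an adjusted p of 0.035, did not pass without VEH replicate 1, 2 or 4 or MYT replicate 11. Reads of overlapping genes may be counted in part: the exons of 6 of the 31 genes shared over 10% of their bases with another gene, led by Rad54b (35.9%, with Fsbp on the same strand), Fanci (16.0%, with Polg) and Rad54l (15.4%, with Lrrc41), and no source used here says whether the counting used strand. Bard1, Brca1, Exo1, Blm, Atm, Chek1 and Chek2 shared none.

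Related genes were counted in the same way, beside 30.5% of all genes tested that were higher in MYT and 29.0% that were lower. Counts near those shares are not read as a change of the list. Such counts were the other Fanconi anaemia genes higher, and the end joining genes, mismatch repair genes and p53 targets lower. Of 20 other recombination genes, 10 were higher in MYT and 2 lower. Rmi2, a partner of BLM, rose by 2.53 on the log2 scale, and Mre11a, the MRN nuclease, was 1 of the 2 that were lower. Of 18 other checkpoint genes, 12 were higher and 2 lower. Cdc25c, the phosphatase that activates CDK1, rose by 2.20, and Atrip, the partner of ATR, fell by 0.72. Of 11 other Fanconi anaemia genes, 3 were higher and 1 lower, and Ube2t, the conjugating enzyme of the pathway, rose by 1.54. End joining, which religates broken ends without a template, had 1 of 9 genes higher and 3 lower, which were Polm (-1.32), Xrcc5 (-1.16) and Prkdc (-1.03). Mismatch repair had 5 of 7 higher, among them Msh3 (1.37), and 2 lower. Of 19 base excision repair genes, 9 were higher and 1 lower, the glycosylase gene Neil2 (-1.95), and of 16 nucleotide excision repair genes, 7 were higher and 3 lower. Of 15 targets of p53, which ATM and CHEK2 activate, 3 were higher and 4 lower, led by Eda2r (-4.18) and Zmat3 (-1.45). Replication genes were higher in 22 of 25 cases and mitosis genes in 19 of 20, with none lower in either list.

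Within the 11 MYT libraries, no relation of the 31 genes to Mki67 passed an adjusted permutation test. With so few libraries only a very large r could pass, so the test cannot show that a gene is unrelated to Mki67. Pearson's r between log2 CPM of each gene and of Mki67 ran from -0.42 (Eme1) to 0.58 (Clspn), with a median of 0.03, and 20 of 31 were positive. The largest r, for Clspn, had a permutation p of 0.0624 (adjusted over the 31 relations, 0.819) and a Spearman's rho of 0.56 (permutation p of 0.0769, adjusted 1). Timeless had r of 0.52 (permutation p of 0.103, adjusted 0.819) and rho of 0.67 (permutation p of 0.0285, adjusted 0.884). Without replicates 5 and 10, the libraries farthest from the Mki67 median, the median r over the genes was -0.03. Mki67 itself ran in this group from 298 to 584 CPM.

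The log2 fold change between RP-6306 and vehicle tumours differed between the sets for 16 of the 31 genes. In a fit of the 4 treated and vehicle groups with an interaction term, the log2 fold change without the suffix exceeded that in the _7 set for 15 genes and was below it for 1, beside 17.0% and 18.9% of 17095 genes tested. For Exo1 the fold changes differed by 1.73 ± 0.28 (adjusted p of 6.51e-05 by edgeR), for Bard1 by 1.63 ± 0.23 and for Timeless by 1.37 ± 0.23. Brca2 and Fanci differed by 1.24 ± 0.27 each and Brca1 by 1.08 ± 0.27. Atm differed by -1.06 ± 0.32, with an adjusted p of 0.0118 by edgeR. In 1 edgeR fit over the 32 libraries the difference did not pass for Atm (adjusted p of 0.126), Bard1 (0.084) or Brca1 (0.0895). That fit called 8 of the 31 genes higher and 0 lower, and the share of all genes it called is not given here. Some genes called higher in the MYT tumours had differences that did not pass by edgeR. These were Eme1 (0.83 ± 0.34, adjusted p of 0.0589), Rad54b (0.93 ± 0.38, 0.0612) and Chek1 (0.56 ± 0.26, 0.095). The others were Clspn (0.50 ± 0.25, adjusted p of 0.134), Rad51c (0.21 ± 0.34, 0.665) and Fancb (0.09 ± 0.32, 0.859). Suffix, sequencing depth and the marker levels above cannot be told apart between the sets. Within the set without the suffix, treatment and tumour source cannot be told apart either.

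The levels behind these differences were not alike in the vehicle groups. Exo1 was at 25.3, 13.2 and 23.7 CPM in VEH_7 and at 12.7, 24.4, 20.9 and 21.2 CPM in M20_7. All 7 lay above the highest VEH library, at 11.5 CPM, and below the lowest MYT library, at 25.8 CPM. Atm in VEH_7 was above every library of the other set. Topbp1 was at 179, 144 and 169.8 CPM in VEH_7 and 134, 169, 181 and 174 in M20_7. In both groups it was also above every VEH and MYT library, and its fold changes differed between the sets by 0.03 ± 0.17.

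Between the untreated tumours, 9 of the 31 genes were higher in SPON than in WT and none was lower. Over 15558 genes tested, edgeR called 4.52% higher and 3.86% lower. The median log2 fold change of the 31 genes was 0.74, beside 0.07 over all genes tested, and 18 had an unadjusted p under 0.05, beside 26.6% of all genes. The genes called were 4 of 5 mediators (H2afx, Timeless, Topbp1, Clspn), 2 of 3 of the helicase and nucleases (Blm, Exo1), 1 of 7 strand exchange and annealing genes (Rad54b), Fancb and Bard1. The groups did not overlap for 7 genes that were higher (Palb2, Blm, Fancb, Topbp1, Timeless, H2afx, Bard1) and for 1 that was lower (Xrcc3), beside 4.36% and 5.45% of all genes. Mki67 was at 304.7 ± 73.2 CPM in WT and 557 ± 217 in SPON (SD, n = 5 each), with a log2 fold change of 0.87 ± 0.29 and an adjusted p of 0.0812 by edgeR.

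This count depended on single libraries. It was 1 of 31, H2afx, without WT replicate 1, 2, 3 or 4, when the share of all genes called higher also fell, to between 1.38% and 1.52%. It was 5 without SPON replicate 3 and 6 without SPON replicate 2 or 4. Without SPON replicates 1 and 5 together, the libraries rich in mitochondrial counts, it was 11. The share of all genes called in those fits is not given here, so these shifts cannot be read as particular to the 31 genes.

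H2afx was at 75.5, 70.6, 66.1, 51.1 and 66.4 CPM in WT and at 212, 133, 113, 227 and 154 CPM in SPON. Every SPON library was above every WT library. The log2 fold change was 1.36 ± 0.24, with an adjusted p of 0.00909 by edgeR, and H2afx passed without any 1 library. Timeless was at 20.2, 22.4, 25.4, 19.4 and 37.9 CPM in WT and at 52.7, 78.5, 43.1, 52.0 and 57.0 CPM in SPON, also without overlap, with a log2 fold change of 1.18 ± 0.25 (adjusted p of 0.0186 by edgeR). Topbp1 was at 46.8, 40.9, 47.4, 44.4 and 79.0 CPM in WT and at 89.0, 147.0, 92.5, 107.9 and 92.9 CPM in SPON. WT replicate 5 stood above the other WT libraries but below all SPON libraries. The log2 fold change of Topbp1 was 1.04 ± 0.24 (adjusted p of 0.0233 by edgeR).

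Blm was at 12.1, 10.1, 7.90, 10.4 and 19.5 CPM in WT and at 21.1, 42.2, 30.5, 29.2 and 28.6 CPM in SPON, without overlap, with a log2 fold change of 1.33 ± 0.29. Exo1 was at 12.2, 7.30, 9.09, 12.2 and 20.3 CPM in WT and at 21.1, 35.2, 29.9, 42.3 and 16.7 CPM in SPON, where SPON replicate 5 lay below WT replicate 5, with a log2 fold change of 1.26 ± 0.34. The helicase and the nuclease were highest in different SPON libraries.

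Rad54b was at 4.08, 3.36, 4.58, 4.14 and 6.96 CPM in WT and at 8.63, 14.9, 15.4, 13.3 and 6.95 CPM in SPON, with a log2 fold change of 1.36 ± 0.34. WT replicate 5 and SPON replicate 5 were level for this gene. Fancb was at 6.01, 3.81, 3.56, 5.50 and 4.68 CPM in WT and at 7.54, 12.7, 14.8, 8.39 and 9.25 CPM in SPON, without overlap, with a log2 fold change of 1.17 ± 0.30. Clspn was at 15.6, 9.39, 14.1, 11.8 and 20.2 CPM in WT and at 25.5, 36.4, 32.2, 33.8 and 17.9 CPM in SPON. SPON replicate 5 lay below WT replicate 5 for Clspn, and its log2 fold change was 1.04 ± 0.28.

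Bard1 was at 8.44, 7.11, 6.30, 8.32 and 15.2 CPM in WT and at 20.0, 22.6, 23.4, 191 and 16.0 CPM in SPON. All SPON libraries were above all WT libraries, and SPON replicate 4 stood far above the rest. The log2 fold change was 2.61 ± 0.72 (adjusted p of 0.0459 by edgeR), but limma voom gave 1.90 and did not call Bard1 (adjusted p of 0.108). Without SPON replicate 4 it was 1.16 by edgeR (adjusted p of 0.0512). Brca1 was also highest in that library: it was at 13.2, 10.2, 12, 18.5 and 33.1 CPM in WT and at 22.8, 54.5, 35.0, 82.6 and 27.3 CPM in SPON. The Brca1 ranges overlapped through WT replicate 5, and its log2 fold change of 1.36 ± 0.43 did not pass (adjusted p of 0.072 by edgeR).

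The kinases and the MRN genes did not pass between the untreated tumours. Atm was at 14.4, 4.505, 8.497, 14.7 and 16.9 CPM in WT and at 3.81, 17.2, 9.18, 18.6 and 7.59 CPM in SPON. The libraries of both groups spread over the same wide range, and the log2 fold change of -0.05 had a 95% interval from -1.08 to 0.98. Chek1 reached 1.02 ± 0.33 on the log2 scale (adjusted p of 0.08 by edgeR), Chek2 0.20 ± 0.21 and Atr 0.05 ± 0.29. Xrcc3 was at 23.5, 16.8, 17.5, 17.0 and 17.3 CPM in WT and at 6.69, 16.6, 15.6, 7.68 and 10.98 CPM in SPON. Its groups did not overlap, but its log2 fold change of -0.67 ± 0.29 did not pass (adjusted p of 0.168 by edgeR).

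Among the related lists, 18 of 25 replication genes and 14 of 20 mitosis genes were higher in SPON, with none lower. Over all genes tested, 4.52% were higher and 3.86% lower. Of 18 other checkpoint genes, 4 were higher, among them the phosphatase gene Cdc25b (1.73) and Rpa2, a subunit of the protein that coats single-stranded DNA (1.28). Of 19 base excision repair genes, 3 were higher, led by Fen1 (1.48) and Ung (1.16), and 1 was lower. Of 15 p53 targets, 5 were lower and none was higher, led by Eda2r (-4.66) and Trp53inp1 (-2.14). Rmi2 (1.98) was the 1 of 20 other recombination genes that passed. None of 11 other Fanconi anaemia, 9 end joining, 7 mismatch repair and 16 nucleotide excision repair genes passed by edgeR. An unadjusted p under 0.05 was found for 3, 1, 2 and 3 of them, beside 26.6% of all genes tested.

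**Figure D4:**
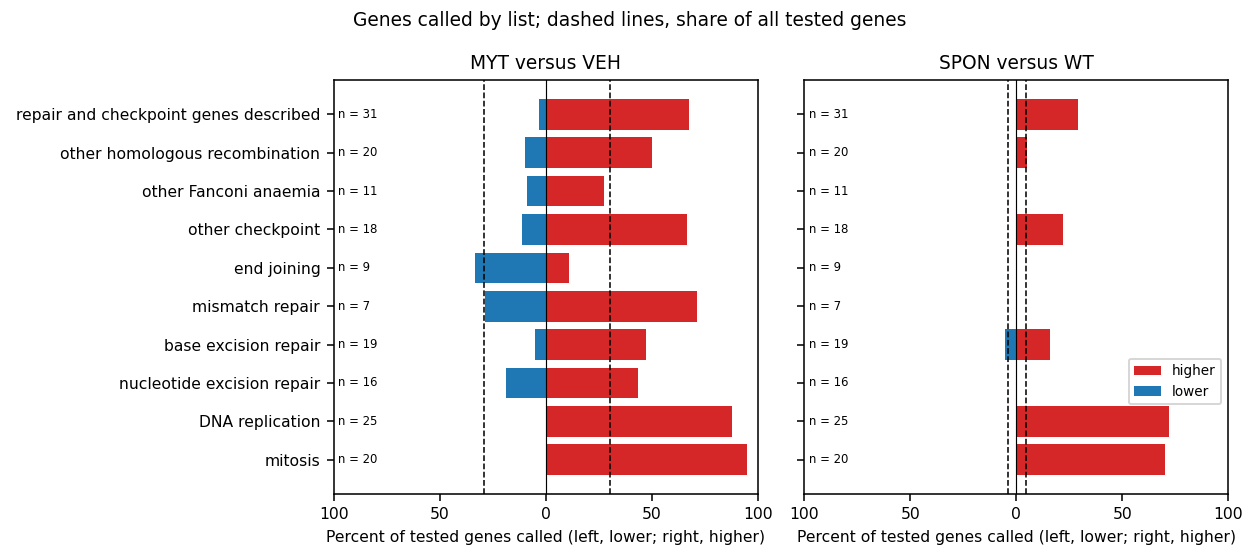
Percent of tested genes called higher (red, right of 0) or lower (blue, left of 0) by edgeR in each list of repair and cell cycle genes, for MYT against VEH and SPON against WT; n is the number of genes tested and dashed lines mark the shares over all genes tested (30.5% and 29.0%, and 4.52% and 3.86%). Replication and mitosis have the longest bars in both panels.

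The library means showed how far the genes moved together within a group. WT replicate 5 was above its group's mean for 28 of the 31 genes, by a median of 0.49 on the log2 scale, and SPON replicate 2 for 26, by 0.46. SPON replicate 1 was above it for 2 of 31, with a median deviation of -0.38. VEH replicate 4 was above its group's mean for 29 genes, by a median of 0.27, and M20_7 replicate 3 for 30, by 0.18. Mki67 was at 938 CPM in SPON replicate 2, the highest of the 5 SPON libraries, and at 525 CPM in MYT replicate 4, which was above its group's mean for 7 of the 31 genes.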

How the data were processed

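RNA from mouse mammary tumours was measured in 33 libraries, of which 32 in 6 groups were used. The build was GRCm38 and the software STAR (version 2.7.10a), HTSeq and edgeR, as named without roles per the submitters' processing notes. The authors deposited whole-number read counts per gene, and all results started from these counts as deposited; a table of log2 CPM values, also deposited by the authors, was not used. The counting mode and annotation release are not stated. Rows without a symbol held 0.0482% of the counts and were kept. Each comparison was fitted on its own groups with the quasi-likelihood test of edgeR (version 4.0.16, under R 4.3.3), after filterByExpr and TMM scaling, and p-values were adjusted over all genes tested, with calls at 0.05. The difference between the sets in the fold change of RP-6306 over vehicle tumours was an interaction term over 4 groups. The SE was taken from the test's F statistic, and intervals are 95%. Log2 CPM used a prior count of 2. Correlations used 1e+05 permutations. Exon lengths and overlaps came from GENCODE M21, which held 99.93% of the identifiers. Alternatives used DESeq2 1.42.0 and limma 3.58.1. The fits were tested on simulated data. Per-library values are given for the 5 called genes with the largest and the 3 with the smallest log2 fold change in a comparison of 2 groups. With none called, they are given for the 4 genes with the smallest p. The MYT libraries are given as a range. Up to 2 called genes of each related list are named by size of change. Further values were chosen after they were seen. The genes and lists were chosen with earlier results of these data known. Some genes of the related lists are not reported here.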

Additional observations from a re-analysis of the deposited data

Results flagged for a closer look

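Across the 31 genes and the 4 groups of 4 to 10 libraries (M20_7, VEH, SPON and WT), 124 sets of values were examined for 1 library far from the rest, and 12 were found, where chance gives about 1 in 20. In 5 of the 12 the library was WT replicate 5, which was high for Rad54l (34.35 CPM, the others 20.03 to 23.55), Fancd2 (11.58 CPM, the others 5.197 to 6.895), Topbp1 (78.95 CPM, the others 40.92 to 47.42), Eme1 (14.98 CPM, the others 4.991 to 7.064) and Bard1 (15.2 CPM, the others 6.299 to 8.439). WT replicate 1 was high for Xrcc3 (23.5 CPM, the others 16.75 to 17.47).

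Each of 3 SPON libraries stood out for 1 gene. Replicate 4 had 190.6 CPM of Bard1, the others 16.04 to 23.4. Replicate 3 had 38.23 CPM of Fanca, the others 5.885 to 15.09. Replicate 2 had 81.41 CPM of Rad50, the others 40.94 to 43.48. M20_7 replicate 1 was low for Fanca (11.26 CPM, the others 16.19 to 16.77) and Rad50 (41.87 CPM, the others 56.53 to 59.1). VEH replicate 4 was high for Brip1 (12.42 CPM, the others 7.389 to 8.096).

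By the interaction test, the log2 fold change of RP-6306 over vehicle tumours differed between the sets for 16 genes. The difference in log2 fold change (set without suffix minus _7 set) was 1.728 for Exo1, 1.633 for Bard1, 1.367 for Timeless, 1.241 for Brca2, 1.238 for Fanci, 1.076 for Brca1 and 1.053 for Blm. It was 0.8929 for Rad54l, 0.8294 for Rad51ap1, 0.8118 for Fancd2, 0.8088 for H2afx and 0.7992 for Palb2. It was 0.6677 for Chek2, 0.6255 for Rad52 and 0.6143 for Mdc1, and -1.057 for Atm.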

How the results depend on the processing

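The _7 set gave 0 genes called under every alternative run (DESeq2 as test or for its size factors alone, unfiltered genes, limma voom with and without sample quality weights, 1 fit over 32 libraries, and each library left out). In MYT against VEH, 18 to 22 genes were higher over the same settings, 19 to 21 with 1 library left out, and Atm was lower in all of them. In SPON against WT, 9 genes were higher, but 5 with no filter, 13 with DESeq2, 20 with 1 fit over 32 libraries, and 1 to 11 with 1 library left out. The single fit also called 1 gene lower, Xrcc3. For the difference between the sets, 15 were higher, but 8 with the single fit, which called 0 lower, and 10 to 17 with 1 library left out. The cause of these shifts was not tested. Apart from some fits without 1 WT library, the share of all genes called under these settings is not given here. These shifts therefore cannot be read as particular to the repair and checkpoint genes. Genes not called under either of 2 settings were not read for direction; in the _7 set, 22 of them changed sign. Alternatives chosen after seeing the data, without SPON replicates 1 and 5 or without the 37 mitochondrially encoded rows, called 11 and 9 genes higher in SPON. No correlation with Mki67 passed with DESeq2's size factors or a prior count of 0.5. No paired analysis was possible because the titles share no replicate numbers between groups.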
